A study of Homo sapiens with 12 samples.

Results

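OCI-AML2 lines made to carry an inducible wild-type MEF2C construct or its S222A mutant were compared here in the absence of the inducer, across every gene the sequencing could measure. Members were the libraries titled uninduced: 3 of the S222A line and 3 of the wild-type (WT) line, 6 of the 12 libraries in the series. OCI-AML2 is an established human acute myeloid leukaemia line. S222A puts an alanine, which cannot be phosphorylated, in place of a serine of MEF2C. Both lines grew from single cells after they received a construct. All 6 libraries came from cells kept 48 h with vehicle, and the other 6 from the same lines kept 48 h with 600 ng doxycycline, the drug that switches such constructs on. The labels name neither the promoter of the construct nor the number of clones per line, and cells without a construct are not among these samples. A difference between the uninduced lines can therefore belong to the clone, to the construct or to leakage from it, and these cannot be told apart. Nothing in the labels says that the 3 replicates of a group were separate cultures, and the p-values therefore reflect the spread of these libraries alone, which may be technical.

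MEF2C, first studied in muscle and neurons, binds DNA as a transcription factor, and in the myeloid lineage it acts in monocyte differentiation and in leukaemia. NF-kB is a family of transcription factors that inflammatory signals release into the nucleus. Its target genes include cytokines such as TNF and IL1B, and also brakes on the same pathway such as TNFAIP3. Monocytes and macrophages carry many of these genes in a readily inducible state, and leukaemia cells of monocytic type share part of that programme.

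The 6 libraries held between 930960 and 8660836 counts, and the shallowest and the deepest were both of the S222A line (replicates 3 and 1). S222A replicate 3 also stood apart: in a principal component analysis of the 6 libraries it lay at 70.5 on the first component (47.1% of the variance), and the others lay between -43.3 and 8.4. Mitochondrially encoded genes took 8.17% of its counts and 5.03% to 7.6% in the others. Counts of MEF2C RNA cannot tell the construct from the endogenous gene. MEF2C RNA was 747, 645 and 817 CPM (counts per 1e6 counts of the library, with TMM factors) in the WT line. It was 605, 701 and 802 CPM in the S222A line, so the groups overlapped. The log2 difference of MEF2C (S222A minus WT, as throughout) was -0.07 ± 0.16 SE (edgeR quasi-likelihood test, adjusted p = 0.999), with a 95% interval from -0.42 to 0.28. Without S222A replicate 1 it was 0.01. In the doxycycline-treated libraries MEF2C stood at 674, 844 and 812 CPM in WT and at 920, 956 and 786 CPM in S222A cells. The share of construct RNA in these counts was not tested, so they do not measure leakage. Of the 8 tested members of the MEF2 family and class IIa deacetylase list, 0 were called with edgeR's adjusted p and 0 reached an unadjusted p of 0.05, with a median of -0.06. The sequence changed by S222A cannot be read from counts per gene, so the label of the mutant line has no check in these values.

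Few genes were called between the uninduced lines, and most of them were higher in the S222A line. Of 11474 genes tested, 45 were called at an edgeR adjusted p under 0.05 (0.392%). Among them 39 were higher in the S222A line (0.34% of all tested) and 6 were lower (0.0523%). The median absolute log2 difference was 1.53 in the called genes, 38 of which differed 2-fold or more, and 0.21 over all genes tested. The median signed difference over all genes tested was 0.002. In all 45 genes the 3 libraries of one line lay outside the range of the other line, as they did in 1416 of all tested genes (12.3%). At an unadjusted p under 0.05 there were 858 genes, 479 higher and 379 lower.

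How many genes were called depended on which libraries entered. The count was 26 without S222A replicate 3 and between 17 and 30 with any 1 of the 6 libraries left out, the lowest without WT replicate 1. It was 9 when only the 6 uninduced libraries were fitted, 83 with DESeq2, and 218 (155 higher, 63 lower) with a term that set the deepest library of each group apart. For 13 genes the call held with any 1 of the 6 libraries left out, and for 8 it held in all 17 alternative analyses, among them CD82, PLEKHO1, LIN7A, MIR146A, CAMSAP2 and TNFAIP3 (higher) and MSI2 (lower). S222A replicate 3 had the highest value of its group in 22 of the 39 higher genes, replicate 1 in 10 and replicate 2 in 7. Its part in the result was not tested beyond leaving it out.

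**Figure D1:**
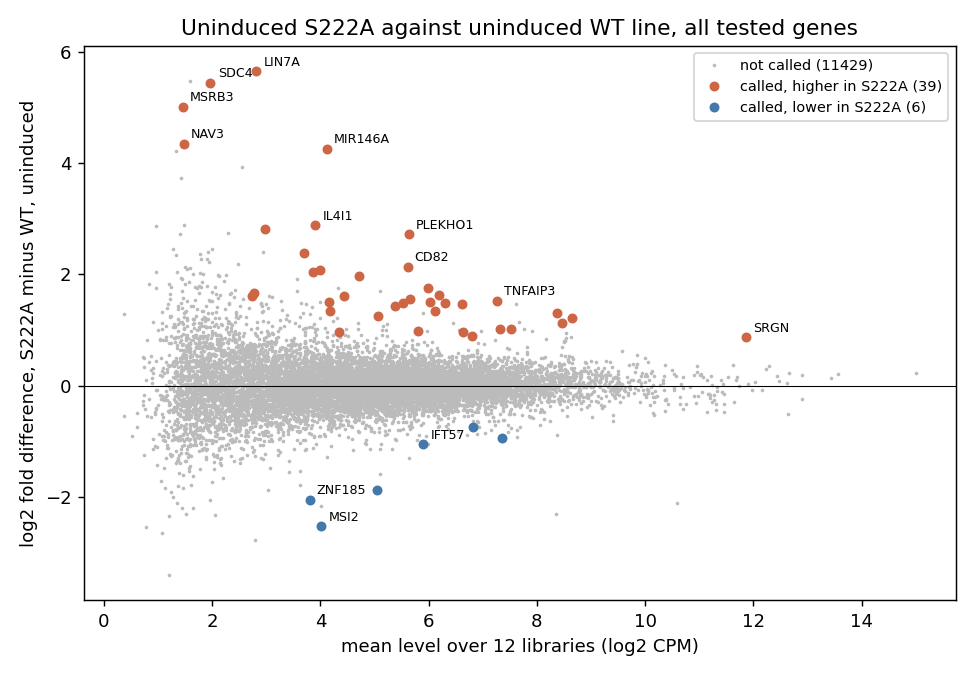
Each point is 1 of 11474 tested genes, with its mean log2 CPM over 12 libraries on the x axis and its log2 difference between the uninduced lines (S222A minus WT) on the y axis. Coloured points are the 45 called genes, 39 above 0 and 6 below. The named genes LIN7A, SDC4, MSRB3 and NAV3 lie above 4 at low mean levels, where genes that were not called also spread widely.

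Some genes of the NF-kB pathway and its inflammatory products were among those higher in the S222A line. Of 25 tested members of a list of NF-kB, cytokine and chemokine genes, 4 were called higher and 0 lower. The list's median log2 difference was 0.45, with 22 members above 0. Beside this list and those below, 0.34% of all genes tested were called higher and 0.0523% lower, with a median of 0.002. The lists were chosen with earlier results of these data known. The 4 called members of the NF-kB list were TNFAIP3, RELB, TNF and IL1B. TNFAIP3, the ubiquitin-editing enzyme A20 that shuts NF-kB signalling off, had 56.5, 48.3 and 51.5 CPM in the WT line and 119, 145 and 189 CPM in the S222A line. Every S222A library was above every WT library, and the log2 difference was 1.53 ± 0.21 SE (edgeR, adjusted p = 0.00495). RELB, a subunit of the non-canonical NF-kB dimer, had 38.9, 52.5 and 28.2 CPM in WT and 95.5, 102 and 138 CPM in S222A cells, a log2 difference of 1.46 ± 0.24 SE (edgeR, adjusted p = 0.02). TNF, the cytokine that activates the pathway through its receptors, stood at 38.4, 54.7 and 20.4 CPM in WT and at 105, 117 and 103 CPM in S222A cells. The WT libraries varied more for TNF than the S222A libraries did, and the log2 difference was 1.49 ± 0.26 SE (edgeR, adjusted p = 0.0225). IL1B, the cytokine interleukin 1 beta, was low in both lines, with 2.42 ± 0.342 CPM (SD, n = 3) in WT and 7.61 ± 2 in S222A cells, and differed by 1.67 ± 0.31 SE (edgeR, adjusted p = 0.0402).

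Of these, the TNFAIP3 call held with any 1 library left out, at an edgeR adjusted p of at most 0.0365. The RELB call was lost without WT replicate 1 or 3 or S222A replicate 2 or 3, and the TNF call without WT replicate 1 or any 1 of the S222A replicates, at edgeR adjusted p up to 0.153 and 0.164. The IL1B call was lost without any 1 of the libraries other than S222A replicate 3 (edgeR adjusted p up to 0.218). BIRC3, an inhibitor of apoptosis that NF-kB induces, missed the threshold at a log2 difference of 1.92 ± 0.42 SE (edgeR, adjusted p = 0.0969), with 0.97 to 3.53 CPM in WT and 5.48 to 8.62 CPM in S222A cells.

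Further called genes with roles around this pathway were MIR146A, ZC3H12A, CD83 and ZFP36L1. The row named MIR146A is taken here to count longer RNA read over the gene of microRNA 146a, but its annotation and strand are not given. NF-kB induces this microRNA, which represses adaptor proteins of the pathway. The mature microRNA is too short for this kind of library and was not measured. Its sequence in RefSeq (GRCh38.p14, chr5:160485372-160485393, + strand) is shown because this row had one of the smallest p-values of the comparison, with the seed (bases 2 to 8) in capitals:
hsa-miR-146a-5p: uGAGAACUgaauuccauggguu
The MIR146A row had 0, 1.35 and 1.23 CPM in the WT libraries and 19.1, 20.1 and 20.8 CPM in the S222A libraries, from 0, 7 and 3 counts and 159, 49 and 19 counts. This row passed the filter on low counts only through S222A libraries, as the WT libraries, uninduced or induced, had at most 1.61 CPM. The log2 difference of the MIR146A row, 4.26 ± 0.44 SE, was called by edgeR with an adjusted p of 0.000773. That adjusted p was at most 0.00546 with any 1 library left out. ZC3H12A, the endonuclease Regnase-1 that degrades inflammatory messenger RNAs, had 2.52, 2.32 and 0.41 CPM in WT and 13.1, 14.4 and 10.95 CPM in S222A cells. CD83, a surface protein of activated dendritic cells and monocytes, had 9.8 to 11.6 CPM in WT and 30.4 to 39.4 CPM in S222A cells. ZFP36L1, which promotes decay of AU-rich messenger RNAs, had 7.57 to 11.9 CPM in WT and 17.5 to 30.2 CPM in S222A cells. These 3 differed by log2 2.82, 1.62 and 1.44, with edgeR adjusted p of 0.0122, 0.0125 and 0.029. The ZC3H12A call was lost without WT replicate 1 or S222A replicate 1 or 2 (edgeR adjusted p up to 0.0698). The CD83 call was lost without WT replicate 1 or 3 or S222A replicate 1 or 2 (up to 0.0958), and the ZFP36L1 call without any 1 library other than S222A replicate 3 (up to 0.201).

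Promoters are shown for TNFAIP3, whose window held a kB motif, for CD82, the gene with the smallest p-value, for LIN7A, which was near silent in the WT line, and for CYBB, a monocyte gene with a CpG-poor window. Each run is the 250 bases before the RefSeq start in GRCh38.p14, read along the strand of the gene. In TNFAIP3 (chr6:137867009-137867258, + strand) capitals mark both matches to the kB motif (GGG, any pair of bases, then TTTCC), searched on both strands, which lie 67 and 55 bases before the start. In CD82 (chr11:44565413-44565662, + strand), LIN7A (chr12:80937935-80938184, - strand) and CYBB (chrX:37779809-37780058, + strand) capitals mark each CG pair:
TNFAIP3: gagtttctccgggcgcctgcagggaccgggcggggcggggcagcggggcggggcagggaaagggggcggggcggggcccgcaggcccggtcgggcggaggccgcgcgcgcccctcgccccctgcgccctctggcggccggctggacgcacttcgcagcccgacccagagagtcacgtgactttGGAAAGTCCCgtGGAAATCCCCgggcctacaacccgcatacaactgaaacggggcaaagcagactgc
CD82: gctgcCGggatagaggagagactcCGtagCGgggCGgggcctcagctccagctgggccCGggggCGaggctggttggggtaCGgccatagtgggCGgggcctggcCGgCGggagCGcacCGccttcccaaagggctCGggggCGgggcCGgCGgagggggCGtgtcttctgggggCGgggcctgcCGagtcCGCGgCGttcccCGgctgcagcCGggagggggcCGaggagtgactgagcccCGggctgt
LIN7A: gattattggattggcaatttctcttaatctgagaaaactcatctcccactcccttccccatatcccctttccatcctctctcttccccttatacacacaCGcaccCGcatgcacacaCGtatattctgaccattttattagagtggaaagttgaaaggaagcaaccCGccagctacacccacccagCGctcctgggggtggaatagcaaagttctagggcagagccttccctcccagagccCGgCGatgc
CYBB: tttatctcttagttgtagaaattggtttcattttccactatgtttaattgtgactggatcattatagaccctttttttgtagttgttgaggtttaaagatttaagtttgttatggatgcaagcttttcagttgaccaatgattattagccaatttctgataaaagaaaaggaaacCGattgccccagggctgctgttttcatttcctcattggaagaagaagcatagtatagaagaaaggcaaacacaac
The CD82 window held 26 CG pairs, the LIN7A window 7 and the CYBB window 1.

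Promoters of 36 of the 45 called genes were found in the RefSeq table. Over windows that also take in the 50 bases after the start, the ratio of observed to expected CpG had a median of 0.62 in called genes (0.6 in higher and 0.7 in lower ones). Its median was 0.85 in the 8606 tested genes with a promoter, with quartiles of 0.72 and 0.96. The ratio describes letters, and methylation was not measured. The kB motif was found in 1 of 31 promoters of higher genes (3.23%), that of TNFAIP3, and in 2.01% of the promoters of tested genes. The AP-1 motif TGANTCA was found in 2 of 31 (6.45%) and in 3.47% of tested genes. The MEF2 motif was found in 0 of 36 and in 1.32% of tested genes. These searches were chosen after the called genes were known, and a match is a description and not a site.

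Some genes of monocytes, macrophages and granules were also among those called higher. Of 22 tested members of the monocyte and macrophage list, 2 were called higher and 0 lower, beside 0.34% called higher of all genes tested. The list had a median log2 difference of 0.45, with 7 members below 0. Its summed level was 714 to 761 CPM in WT and 805 to 995 CPM in S222A libraries. In a culture, more cells in a state and more RNA of that state per cell cannot be told apart. CYBB, the catalytic subunit of the phagocyte NADPH oxidase, had 120, 110 and 106 CPM in WT and 203, 226 and 252 CPM in S222A cells. MS4A7, a tetraspan protein of macrophages, had 97.4, 97.2 and 102 CPM in WT and 221, 197 and 175 CPM in S222A cells. Neither gene overlapped between the lines, with log2 differences of 1.02 ± 0.15 SE and 1.01 ± 0.14 SE (edgeR, adjusted p = 0.00688 and 0.00568). The CYBB call was lost without WT replicate 3 or S222A replicate 2 (edgeR adjusted p = 0.0671 and 0.0502) and the MS4A7 call without WT replicate 1 (0.0645).

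S100A9, a subunit of the neutrophil and monocyte protein calprotectin, had 46.9, 63.2 and 37.2 CPM in WT and 120, 135 and 209 CPM in S222A cells, a log2 difference of 1.63 ± 0.27 SE (edgeR, adjusted p = 0.0179). It was the 1 called member of 11 tested S100 genes, whose median was 0.38. Its partner subunit S100A8 had 9.46 to 17.6 CPM in WT and 24.1 to 39.0 CPM in S222A cells and missed the threshold at 1.21 ± 0.27 SE (edgeR, adjusted p = 0.107). The S100A9 call was lost without WT replicate 1 or 3 or S222A replicate 2 or 3 (edgeR adjusted p from 0.0502 to 0.138).

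SRGN and ORM1 were the most abundant called genes. SRGN, the proteoglycan core of granules, had 3582, 3105 and 3269 CPM in WT and 5709, 6611 and 5862 CPM in S222A cells. ORM1, the acute-phase plasma protein orosomucoid, had 267, 318 and 290 CPM in WT and 653, 564 and 814 CPM in S222A cells. Their log2 differences were 0.87 ± 0.17 SE and 1.21 ± 0.18 SE (edgeR, adjusted p = 0.0491 and 0.00971). ORM1 has a near-identical neighbour, ORM2, and counts that share reads between them are uncertain. The SRGN call was lost with any 1 of the 6 libraries left out (edgeR adjusted p from 0.118 to 0.29), and the ORM1 call without WT replicate 1 or 3 (0.115 and 0.0686). SRGN was the 1 called gene among 17 tested azurophil granule genes, whose median was 0.29 with 6 members below 0. Members of the azurophil list lay on both sides of 0: CTSG, the protease cathepsin G, differed by 0.80 and MPO, myeloperoxidase, by -1.25, and neither was called (edgeR, adjusted p = 0.102 and 0.346). MPO had 15.5 to 19.3 CPM in WT and 4.92 to 9.13 CPM in S222A cells.

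Other called immune genes were a membrane receptor, an adaptor, an antigen-presenting chain and a transcription factor. PTAFR, the receptor for platelet activating factor, had 9.08, 5.79 and 3.27 CPM in WT and 25.1, 21.3 and 29.6 CPM in S222A cells, a log2 difference of 2.07 ± 0.35 SE (edgeR, adjusted p = 0.0225). HCST, the adaptor DAP10 that carries signals of the receptor NKG2D, had 17.7 to 27.4 CPM in WT and 47.6 to 73.4 CPM in S222A cells. HLA-DRB1, an antigen-presenting class II chain, had 7.57 to 8.69 CPM in WT and 15.3 to 22.3 CPM in S222A cells, and its reads may be shared with other DRB genes. It was the 1 called gene of 10 tested class II genes, whose median was 0.2 with 7 members above 0 and 3 below. POU2F2, the transcription factor Oct-2 of B cells and myeloid cells, had 56.5 to 66.8 CPM in WT and 103 to 124 CPM in S222A cells. These last 3 differed by log2 1.48, 1.34 and 0.89, with edgeR adjusted p of 0.0413, 0.0491 and 0.014. The calls of HCST and HLA-DRB1 were lost with any 1 of the 6 libraries left out, each at an edgeR adjusted p up to 0.252. The PTAFR call held without WT replicate 1 and was lost without any other library (up to 0.121), and the POU2F2 call was lost without WT replicate 1 or 3 or S222A replicate 1 or 2 (up to 0.164).

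The call with the smallest p-value was CD82, a tetraspanin that organises adhesion receptors in the cell membrane and whose CpG-rich promoter was given with the sequences. CD82 had 11.1, 9.46 and 11.03 CPM in the WT libraries and 44.5, 45.6 and 49.3 CPM in the S222A libraries. The replicates of each line were tight and far apart from the other line, and the log2 difference was 2.14 ± 0.16 SE (edgeR, adjusted p = 6.42e-05). PLEKHO1, a pleckstrin homology protein that binds casein kinase and actin capping protein, had 11.1, 11.8 and 5.72 CPM in WT and 56.6, 57.9 and 82.1 CPM in S222A cells, a log2 difference of 2.72 ± 0.25 SE (edgeR, adjusted p = 0.000376). CAMSAP2, which caps the minus ends of microtubules, had 11.1, 7.92 and 9.8 CPM in WT and 36.5, 32.8 and 42.7 CPM in S222A cells, a log2 difference of 1.97 ± 0.22 SE (edgeR, adjusted p = 0.00114). All 3 calls held in each of the 17 alternative analyses.

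More called genes act at the membrane, in the cytoskeleton or on the matrix. RAB13, a small GTPase of vesicle transport, had 1.51, 3.09 and 3.27 CPM in WT and 19.2, 10.3 and 12.1 CPM in S222A cells, from 3, 16 and 8 counts and 160, 25 and 11 counts. CAPG, which caps actin filaments in macrophages, had 95.4, 124 and 74.4 CPM in WT and 203, 196 and 333 CPM in S222A cells. MMP14, a membrane-bound metalloprotease that cleaves matrix, had 145, 136 and 127 CPM in WT and 245, 283 and 369 CPM in S222A cells. These 3 genes differed by log2 2.39, 1.30 and 1.13, with edgeR adjusted p of 0.00638, 0.0265 and 0.00688, and S222A replicate 3 was the highest library for CAPG and MMP14. The RAB13 call was lost without S222A replicate 1 (edgeR adjusted p = 0.0507), the MMP14 call without WT replicate 3 (0.0567), and the CAPG call without WT replicate 1 or 3 or S222A replicate 2 or 3 (up to 0.183). MMP14 was the 1 called gene of 24 tested metalloprotease and matrix genes, a list with a median of 0.46 and 19 members above 0. Beside it LGALS1, the lectin galectin 1, missed the threshold at 1.47 ± 0.29 SE (edgeR, adjusted p = 0.0561), with 42.9 to 79.2 CPM in WT and 133 to 220 CPM in S222A cells.

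Some called genes had almost no counts in the WT line and more in the S222A line, although few in its shallowest library. LIN7A, a scaffold protein of cell polarity and synapses, had 0, 3 and 0 counts in the 3 WT libraries and 99, 47 and 18 counts in the S222A libraries. In CPM these were 0, 0.58 and 0 against 11.9, 19.3 and 19.7. The ratio of the pooled CPM was 45, with a 95% counting interval from 15.1 to 220, and the call (edgeR, adjusted p = 0.000709) held with any 1 library left out. SDC4, the heparan sulphate proteoglycan syndecan 4, had 1, 0 and 0 counts in WT and 67, 13 and 2 in S222A cells, a ratio of 67.5 (11.8 to 2700). MSRB3, an enzyme that repairs oxidised methionine, had 0, 1 and 0 counts in WT and 36, 6 and 6 in S222A cells, a ratio of 39.5 (6.76 to 1590). These 3 were the called genes with 3 or fewer counts summed over the uninduced libraries of one line, and the intervals cover counting error only. NAV3, a microtubule-binding protein of neurons, was nearly as low in WT cells, with 0, 2 and 2 counts, and had 53, 15 and 16 counts in S222A cells. LIN7A, SDC4, MSRB3 and NAV3 passed the filter on low counts only through S222A libraries. In the WT libraries, uninduced or induced, they had at most 1.12 CPM. Their being tested thus already depended on their level in the S222A line. The edgeR adjusted p was 0.0225 for SDC4, 0.0402 for MSRB3 and 0.0225 for NAV3. The SDC4 call held without S222A replicate 3 and was lost without any other library (up to 0.159), and the MSRB3 and NAV3 calls were lost with any 1 of the 6 libraries left out (up to 0.188 and 0.129).

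The promoter windows of NAV3 and LIN7A lie at chr12:77830644-77830893 and chr12:80937935-80938184, and untested genes between them were not counted. In the RefSeq order of tested genes, 1 tested gene lay between the pair. That gene, PPP1R12A, a regulatory subunit of myosin phosphatase, had 102 to 152 CPM in WT and 120 to 163 CPM in S222A cells, with a log2 difference of 0.16 ± 0.22 SE (edgeR, adjusted p = 0.973). The tested genes on the outer sides, E2F7 next to NAV3 and CCDC59 next to LIN7A, differed by 0.47 and -0.33 and were not called (edgeR, adjusted p = 0.716 and 0.72). No other called pair had fewer than 15 tested genes between its members. Along the chromosomes no broad shift was seen: 10669 tested genes, all 45 called genes among them, had a chromosome in RefSeq, and the median log2 difference of a chromosome ran from -0.04 to 0.07. Called genes lay on 18 of 23 chromosomes. Windows of 25 neighbouring tested genes (10105 windows) had medians from -0.25 to 0.33 and held at most 2 called genes.

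Growth control and metabolism gave a further set of higher genes. BTG2, an antiproliferative cofactor of messenger RNA deadenylation, had 7.07, 7.53 and 7.35 CPM in WT and 19.8, 25.5 and 19.7 CPM in S222A cells, a log2 difference of 1.56 ± 0.20 SE (edgeR, adjusted p = 0.00297). CDKN1A, the cyclin-dependent kinase inhibitor p21, had 26.2, 41.3 and 27.0 CPM in WT and 97.2, 80.0 and 96.4 CPM in S222A cells, a log2 difference of 1.51 ± 0.21 SE (edgeR, adjusted p = 0.005). Both groups of libraries were apart for each gene, and the CDKN1A call was lost without WT replicate 1 (edgeR adjusted p = 0.0511). The BTG2 call was lost in the 6 uninduced libraries alone (0.0953) and with libraries thinned to equal depth (0.203), and the CDKN1A call in the 6 libraries alone (0.0594). BTG2 and CDKN1A were the called members of the CDK inhibitor and G1 cyclin list (2 of 27 tested, median 0.19), beside 0.34% called higher of all genes tested. CDKN1A was also the 1 called gene of 27 tested p53 response genes, with a list median of 0.25 and 22 members above 0. Genes of DNA replication (46 tested, median -0.04) and mitosis (43 tested, median 0.02) had 0 called members with edgeR, and 1 member of each list had an unadjusted p under 0.05.

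SLC7A11, the cystine importer that feeds glutathione synthesis, had 23.2, 25.7 and 22.1 CPM in WT and 93.5, 89.9 and 51.5 CPM in S222A cells, with the lowest value in S222A replicate 3. CYP1B1, a cytochrome P450 that oxidises xenobiotics and oestrogens, had 28.8, 19.7 and 22.5 CPM in WT and 54.5, 61.6 and 63.5 CPM in S222A cells. IL4I1, a secreted oxidase of aromatic amino acids made by macrophages and dendritic cells, had 3.03, 0.77 and 2.04 CPM in WT and 11.3, 13.5 and 13.1 CPM in S222A cells. Their log2 differences were 1.75 ± 0.21 SE, 1.35 ± 0.17 SE and 2.88 ± 0.42 SE (edgeR, adjusted p = 0.00169, 0.00324 and 0.00688), and all 3 calls held with any 1 library left out. In the 6 uninduced libraries fitted alone all 3 were lost (edgeR adjusted p = 0.0538, 0.0953 and 0.0953), and IL4I1 was also lost with libraries thinned to equal depth (0.598). LPL, the lipase that releases fatty acids from lipoproteins, had 39.2 to 54.5 CPM in WT and 86.1 to 102 CPM in S222A cells. PON2, an intracellular lactonase, had 13.6 to 15.1 CPM in WT and 27.4 to 29.1 CPM in S222A cells. FAM20C, the kinase that phosphorylates secreted proteins, had 1.23 to 4.54 CPM in WT and 10.95 to 16.6 CPM in S222A cells. These last 3 were close to the threshold (edgeR, adjusted p = 0.0413, 0.0293 and 0.04), and each call was lost with any 1 of the 6 libraries left out (up to 0.21, 0.183 and 0.232).

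Also higher were ATP6V0A1, FOXN3 and ZNF438. ATP6V0A1, a membrane subunit of the proton pump that acidifies lysosomes, had 13.1 to 20.1 CPM in WT and 32.4 to 50.4 CPM in S222A cells. FOXN3, a forkhead repressor, had 50.03 to 69.04 CPM in WT and 106 to 127 CPM in S222A cells, and ZNF438, a zinc finger protein, had 9.08 to 14.1 and 27.5 to 43.8 CPM. They differed by log2 1.26, 0.97 and 1.5 (edgeR, adjusted p = 0.0225, 0.0225 and 0.0491). The ATP6V0A1 call was lost without WT replicate 1 or 3 or S222A replicate 1 or 3 (up to 0.159), the FOXN3 call without any library other than WT replicate 3 (up to 0.153), and the ZNF438 call with any 1 of the 6 left out (up to 0.246).

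The 6 genes lower in the S222A line included a regulator of blood stem cells. MSI2, the RNA-binding protein Musashi 2 that supports self-renewal of blood stem cells and myeloid leukaemia, had 29.8, 26.9 and 23.7 CPM in WT and 3.96, 6.98 and 2.19 CPM in S222A cells. This was a log2 difference of -2.52 ± 0.32 SE (edgeR, adjusted p = 0.00297), the most negative of the called genes, and S222A replicate 3 had 2 counts. ZNF185, a LIM domain protein of the actin cytoskeleton, had 21.7, 23.4 and 24.9 CPM in WT and 5.89, 5.34 and 5.48 CPM in S222A cells, a log2 difference of -2.05 ± 0.25 SE (edgeR, adjusted p = 0.00266). For both genes every S222A library held less than the lowest WT library, and the calls held with any 1 library left out, while the ZNF185 call was lost with libraries thinned to equal depth (edgeR adjusted p = 0.407). MSI2 was the 1 called gene of 18 tested progenitor and stemness genes, whose median was 0.04 with 9 members on either side of 0. SPINK2, another gene of that list, had 4.64 to 5.55 CPM in WT and 0 to 2.87 CPM in S222A cells. It was not called at -1.54 ± 0.40 SE (edgeR, adjusted p = 0.213). Under doxycycline its order was the other way, with 13.2 to 16.2 CPM in WT and 23.4 to 24.1 CPM in S222A cells (edgeR, adjusted p = 0.179). GATA2 of the same list, low in both lines, differed by 1.57 ± 0.67 SE without the drug and was not called (edgeR, adjusted p = 0.628).

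IFT57, METTL9 and BCAT1 were lower by a smaller amount. IFT57, a transport protein of cilia, had 92.4, 93.9 and 105 CPM in WT and 49.0, 46.4 and 44.9 CPM in S222A cells, a log2 difference of -1.05 ± 0.16 SE (edgeR, adjusted p = 0.0122). METTL9, a histidine methyltransferase, had 247, 183 and 228 CPM in WT and 102, 129 and 114 CPM in S222A cells. BCAT1, the cytosolic enzyme that transfers the amino group of branched-chain amino acids, had 147, 146 and 158 CPM in WT and 89.0, 83.7 and 97.5 CPM in S222A cells. METTL9 and BCAT1 differed by -0.93 ± 0.18 SE and -0.74 ± 0.14 SE (both edgeR, adjusted p = 0.0413). BCAT1 and the higher IL4I1 were the 2 called genes of 35 tested genes of amino acid synthesis and branched-chain catabolism, a list whose median was -0.25 with 28 members below 0. PHGDH, the first enzyme of serine synthesis, was in that list at -0.72 ± 0.17 SE and did not pass. The IFT57 call was lost without WT replicate 1 or 3 or S222A replicate 1 or 2 (edgeR adjusted p up to 0.0708), the METTL9 call without any library other than WT replicate 2 (up to 0.206), and the BCAT1 call with any 1 of the 6 left out (up to 0.21).

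**Figure D2:**
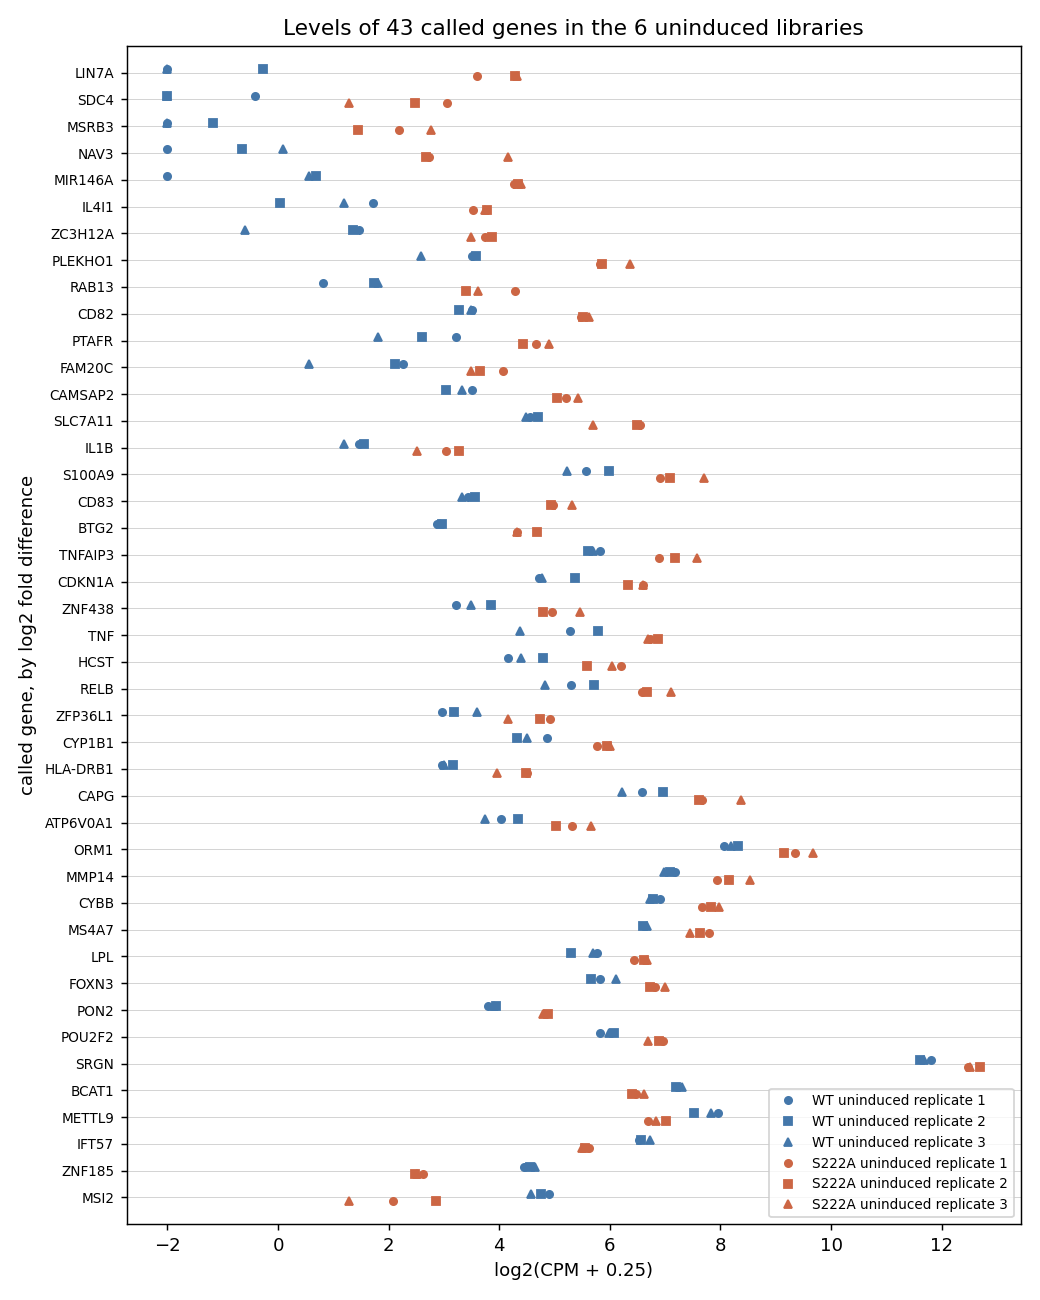
Levels of 43 of the called genes (rows, ordered by log2 difference) in the 6 uninduced libraries, as log2(CPM + 0.25) on the x axis, with 1 symbol per library, blue for WT and orange for S222A. In each row the 3 symbols of one colour lie on one side of the other 3. A symbol at -2 is a library with 0 counts of that gene.

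The doxycycline-treated libraries compared the same lines again. No library is shared with the uninduced comparison, but the clones are the same. There 727 of 11474 genes were called between the lines (6.34%), 428 higher (3.73%) and 299 lower (2.61%). Of the 39 genes higher in uninduced S222A cells, 29 were also called higher in induced S222A cells, and of the 6 lower genes 6 were also called lower. Of all 45, 44 had the same sign, and 25 had a larger absolute log2 difference under doxycycline. All 12 libraries share 1 estimate of the spread in this fit. Without WT uninduced replicate 1 the number called in both comparisons was 17, the lowest with any 1 library left out, of 17 called between the uninduced lines.

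Genes with the smallest p-values between the uninduced lines were also called under doxycycline. CD82 had 13.5 to 15.3 CPM in induced WT and 112 to 122 CPM in induced S222A cells, a log2 difference of 3.06 ± 0.16 SE beside 2.14 ± 0.16 SE without the drug. LIN7A had 2, 1 and 2 counts in induced WT and 28, 47 and 115 counts in induced S222A libraries. MSI2 was at 24.6 to 40.4 CPM against 3.57 to 5.2 CPM. Each of these 3 was called between the induced lines (edgeR, adjusted p between 5.56e-07 and 0.00053). MSI2, the stem cell regulator, thus stayed low in S222A libraries of both conditions, and LIN7A stayed near silent in WT libraries of both.

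BTG2, ZFP36L1, CAPG and IFT57 were further apart under doxycycline. BTG2, the antiproliferative cofactor, had 17.9 to 21.6 CPM in induced WT and 129 to 167 CPM in induced S222A cells, a log2 difference of 2.82 ± 0.18 SE. ZFP36L1 had 11.1 to 16.8 CPM and 94.3 to 135 CPM there, a log2 difference of 3.11 ± 0.25 SE. CAPG, the actin capping protein, had 155 to 191 CPM and 774 to 858 CPM (2.26 ± 0.23 SE), and IFT57 had 67.3 to 86.3 CPM and 12.5 to 17.0 CPM (-2.36 ± 0.17 SE). Whether the line difference itself changed with the drug was tested by the interaction of line and doxycycline. With edgeR, 0 of the 45 genes passed an adjusted p of 0.05 in that test (9 of all genes tested did, 0.0784%), 16 had an unadjusted p under 0.05, DESeq2 called 5 and limma-voom 0. The smallest adjusted p among these 4 genes was 0.0712, for IFT57, with an interaction of -1.31 ± 0.23 SE (edgeR).

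Called without the drug and not called with it were 10 genes, among them NAV3, ZC3H12A, S100A9, ORM1, IL1B, PON2, SRGN, ZNF438 and LPL. NAV3 had 0.58, 1.12 and 0.79 CPM in induced WT and 0.35, 1.56 and 1.04 CPM in induced S222A cells, so the S222A signal of 6.37, 6.16 and 17.5 CPM had no counterpart in the induced libraries. S100A9 had 31.6 to 42.6 CPM in induced WT and 41.9 to 71.4 CPM in induced S222A cells, which overlap. LPL, the lipase, was the 1 gene with the opposite sign, at -0.17 ± 0.19 SE (edgeR, adjusted p = 0.679). ORM1 differed by 0.33, SRGN by 0.26, IL1B by 0.99 and ZC3H12A by 0.97 between the induced lines. IL1B and PON2 missed the threshold there by little (edgeR, adjusted p = 0.0527 and 0.0657). None of the 10 passed the edgeR interaction test, with adjusted p of 0.47 for NAV3 and 0.262 for LPL, so their difference is not shown to depend on the drug.

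**Figure D3:**
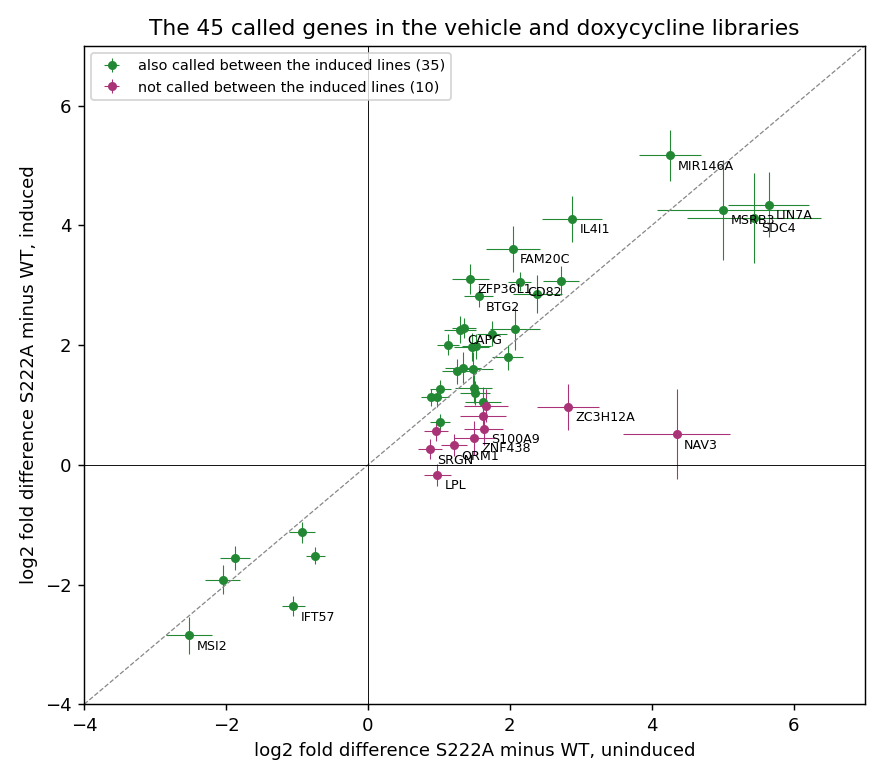
Log2 difference between the lines (S222A minus WT) without doxycycline on the x axis and with it on the y axis for the 45 called genes, with bars of 1 SE and a dashed line of equality. The 35 green genes were also called between the induced lines, the 10 purple ones were not, and LPL lies just below 0 on the y axis.

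Most of the 39 gene lists held no called gene. Of 33 tested lysosome genes, 0 were called with edgeR, and the median was 0.37 with 27 above 0. An unadjusted p under 0.05 was reached by 10 of them, all higher, and by 7.47% of all genes tested in either direction. CTSZ, the lysosomal protease cathepsin Z, had 64.1 to 106 CPM in WT and 132 to 229 CPM in S222A cells (0.99 ± 0.23 SE, edgeR adjusted p = 0.114). Cytokine and growth factor receptors had 0 of 31 called and 7 at an unadjusted p under 0.05, with a median of 0.31. The HOXA cluster with MEIS1 and PBX3, genes that many acute myeloid leukaemias express, had 0 of 10 called, 0 at an unadjusted p under 0.05 and a median of 0.04. HOXA9 stood at 171 to 207 CPM in WT and 130 to 204 CPM in S222A cells. Genes of MYC and ribosome biogenesis had 0 of 40 called, 1 at an unadjusted p under 0.05 and a median of -0.06. MYC itself had 251, 337 and 284 CPM in WT and 231, 211 and 53.7 CPM in S222A cells, with the lowest value in S222A replicate 3 and a difference of -0.79 ± 0.37 SE (edgeR, adjusted p = 0.687). Type I interferon-stimulated genes had 0 of 27 called and a median of 0.08, with 3 at an unadjusted p under 0.05.

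**Figure D4:**
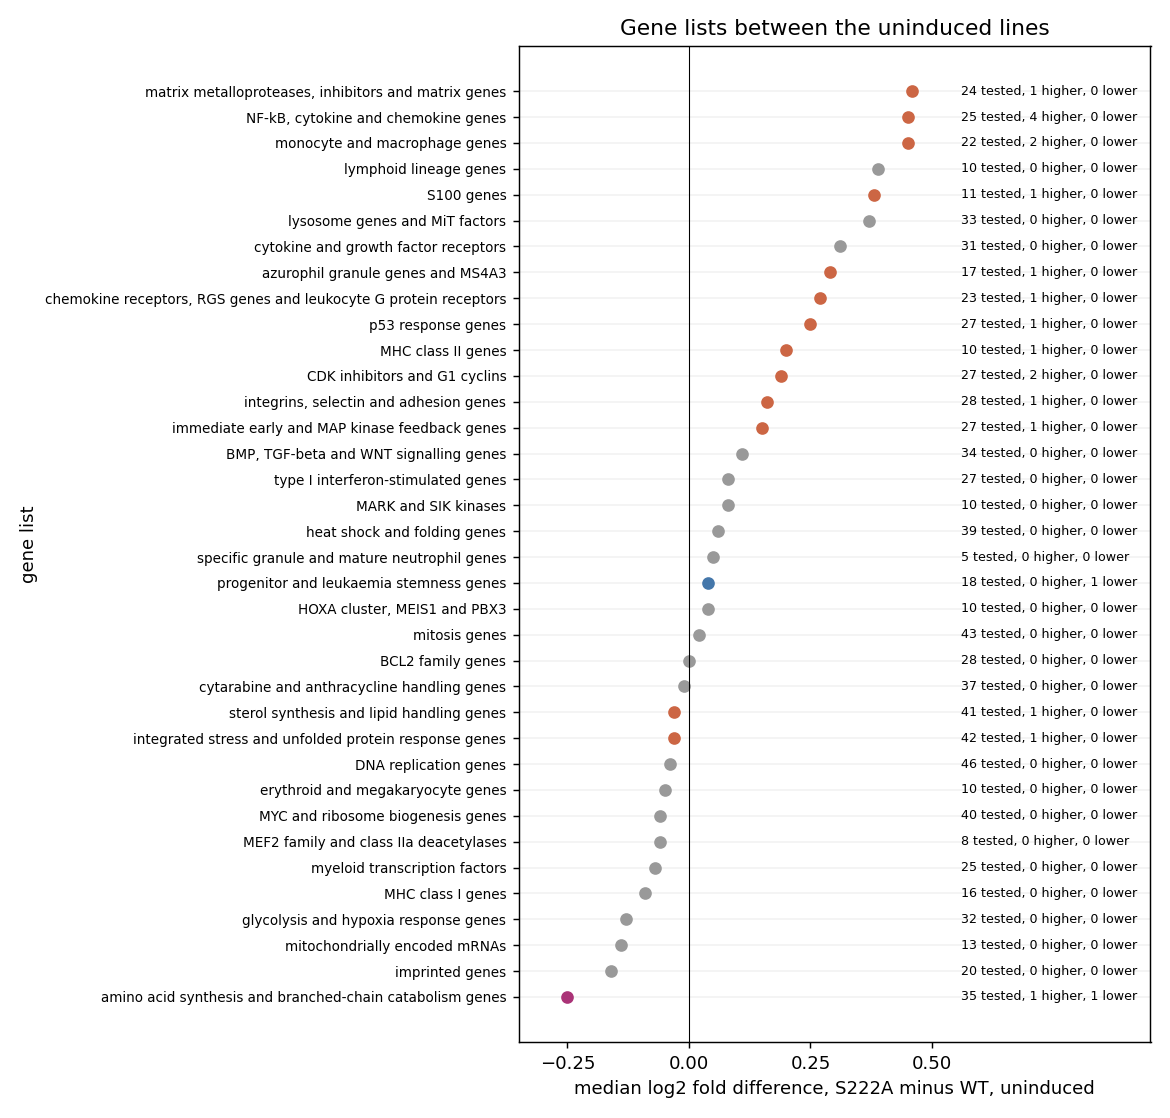
Median log2 difference between the uninduced lines (S222A minus WT, x axis) of each gene list with at least 5 tested members (rows), with the number tested and called at the right. Orange lists held only higher calls, blue only lower, purple both and grey none, and the medians ran from -0.25 (amino acid synthesis) to 0.46 (metalloproteases and matrix) beside 0.002 for all genes tested.

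The identity of the cells was checked against marker genes. CD33, SPI1, HOXA9 and MEIS1, markers of myeloid leukaemia, were counted in all 6 uninduced libraries, and 0 of these 4 were called. Other markers of the planned set were low. MPO had 15.5 to 19.3 CPM in WT and 4.92 to 9.13 CPM in S222A cells, and LYZ 4.64 to 11.6 and 3.6 to 23 CPM. KIT, a progenitor receptor, had 1, 23 and 1 counts in WT and 15, 3 and 0 counts in S222A cells. MPO, LYZ and KIT were not called (edgeR, adjusted p = 0.346, 0.961 and 0.961). CD34, the antigen of progenitor cells, had at most 1 count in a library, and CEBPA, a myeloid transcription factor, had 0 counts in all 12 libraries. For other cell types, CD3E of T cells, HBB and HBA1 of red cells and EPCAM of epithelia were at 0 in the 6 libraries. Of 10 tested lymphoid genes, 10 erythroid and megakaryocyte genes, 4 basophil and mast cell genes and 4 stromal, endothelial and epithelial genes, edgeR called 0 in each list. At an unadjusted p under 0.05 these lists had 2, 2, 2 and 0 genes. Their summed levels in WT and S222A libraries were 352 to 406 and 393 to 444 CPM for lymphoid genes, 876 to 959 and 1050 to 1210 CPM for erythroid and megakaryocyte genes, 164 to 273 and 252 to 352 CPM for basophil genes and 46 to 72.7 and 44.8 to 55.8 CPM for stromal genes.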

How the data were processed

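RNA of 12 libraries was sequenced after TruSeq preparation, per the labels' protocols. The authors deposited raw counts per gene symbol, as whole-number counts without normalization. The submitters' processing notes name STAR 2.4, HTSeq 0.6.1, DESeq2 and the genome build hg19. The sources used here give no annotation release, strand setting or role of DESeq2, so overlapping genes on opposite strands cannot be told apart. The header of the table joins its last names by a space, and columns were matched by the sample descriptions. The S222A columns carry no S222A in their names, so the match rests on the sample titles.

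From 55765 genes (24318 without a count), filterByExpr at a minimum count of 10 kept 11474 with 99.5% of the counts. The 12 libraries were fitted together, with 1 mean for each of the 4 groups, leaving 8 residual degrees of freedom. Genes were tested in R 4.3.3 with edgeR 4.0.16 (TMM factors, robust quasi-likelihood F test), with Benjamini-Hochberg adjustment over all genes tested and calls under 0.05. SE is the absolute log2 difference divided by the square root of F. The script was tested on simulated data. Alternatives used DESeq2 1.42.0, limma-voom (limma 3.58.1), other scalings, filters and sets of libraries. A floor of 3 counts was 0.346 to 3.22 CPM in the 6 uninduced libraries, for counting error only. Within each uninduced group every pair of libraries differed beyond sampling noise (chi-square per degree of freedom 6.36 to 37.6).

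Members, gene lists and tests were chosen with earlier results of these data known. The rule for named genes took MEF2C, up to 15 genes a direction with the largest called difference (mean log2 CPM of at least 1, no overlap), up to 4 called members per list, called genes with 3 or fewer counts in one line, and up to 3 of the most abundant called genes a direction. Results of 2 called genes are not reported here. The remaining called genes, the list members that were not called, the neighbours on chromosome 12, the grouping by role and the promoters shown were chosen after their values were seen. Promoters, the mature microRNA, chromosomes and gene order come from RefSeq tables (GRCh38.p14), matched by symbol.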

Additional observations from a re-analysis of the deposited data

How the results depend on the processing

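Direction was kept by every called gene in every analysis that tested it, and scaling moved the median of all genes by at most 0.009 (log2). The number of called genes moved more. Against 45 (39 higher, 6 lower, 35 also called between the induced lines), the 6 uninduced libraries alone gave 9 (6 higher, 3 lower), DESeq2 gave 83 (64, 19, and 61 also called between the induced lines) and no filter on low counts gave 91 (71, 20 and 58). A term for the deepest libraries gave 218 (155, 63 and 158), leaving out the deepest library of each group gave 51 with 9 lower, and thinning to equal depth gave 29 (23 higher, 23 also called between the induced lines). With 1 library left out the counts ran from 17 to 30 (14 to 25 higher, 3 to 5 lower), and 17 to 26 were also called between the induced lines. Limma-voom, RLE or upper quartile scaling and a minimum count of 30 gave 41, 43, 40 and 45. The interaction with doxycycline was called in 0 of the 45, and in 5 with DESeq2, 1 with no filter, 1 with a minimum count of 30 and 8 with the term for the deepest libraries. The cause of these moves was not tested. Fits of fewer libraries have fewer degrees of freedom, and among them the number called was both lower (9) and higher (51) than 45. The shallowest library, with 930960 counts, limits what can be seen of genes near its floor of 3.22 CPM.

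MEF2C stayed uncalled throughout, between -0.17 and 0.01 with 1 library left out. Replicate numbers did not pair the samples: same-numbered libraries had correlations of -0.304, -0.12 and 0.323 of their deviations from the group means. Differently numbered libraries had correlations from -0.456 (WT replicate 3 with S222A replicate 1) to 0.615 (WT replicate 2 with S222A replicate 1, the deepest of each group). Libraries of the 2 lines thus shared variation that did not follow the replicate number, and its source was not tested. With the replicate number as a block, 22 genes were called (19 higher, 3 lower), 19 of them also between the induced lines, and MEF2C differed by -0.07.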
